A study of Homo sapiens with 32 samples.

Results

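The 7 genes described here encode replication-independent histone variants: H3-3A and H3-3B (both for H3.3), H2AZ1 and H2AZ2 (the H2A.Z proteins), H2AX, MACROH2A1 and the linker histone H1-10. They were chosen by gene symbol, and all 7 were present among the 24242 genes of the table. The cells were HUH7, a hepatoma line of human origin, and their new RNA was labelled by a 40 minute pulse of 0.5 mM 5-ethynyl uridine (EU), a uridine analogue that allows labelled transcripts to be pulled down. In the release groups the cells went through 2 mM thymidine for 24 hours, 2 hours without it and 0.06 ug/mL nocodazole for 16 hours, after which mitotic cells were shaken off, washed and replated. The release groups are labelled 0, 40, 80, 105, 165 and 300 minutes, and the asynchronous culture is the comparison group. The labels list 3 samples in each of these 7 groups. The sources used here do not say whether a stated time is the start or the end of the pulse.

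Most histone genes are transcribed in S phase, when chromatin is copied. The variant genes are transcribed outside S phase as well, and their messages are mostly spliced and polyadenylated, whereas those of the S phase genes are neither. H3.3 is placed by the HIRA complex at transcribed genes and by DAXX with ATRX at heterochromatin. H2A.Z is exchanged into nucleosomes beside promoters by the SRCAP and EP400 complexes. H2AX is the form phosphorylated around DNA breaks, and its gene can also give the S phase type of message. MacroH2A carries a large extra domain and is found in repressed chromatin, and H1-10 is a linker histone that binds between nucleosomes.

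The promoters of the 5 members whose release values were highest at 40 or 80 minutes are shown. Promoter windows, from 250 bases before to 50 bases after the start site, were taken from RefSeq (GRCh38.p14), and all 7 members matched, with 11 windows. Capitals mark matches to CCAAT, the letters bound by NF-Y. A match on the opposite strand reads ATTGG here. Capitals also mark a TATA box match on the gene's strand, which reads TATAAA. The H3-3A window at chr1:226062466-226062765 lies on the plus strand. Those of H3-3B at chr17:75779730-75780029, H2AZ1 at chr4:99950226-99950525, H2AZ2 at chr7:44848038-44848337 and H2AX at chr11:119095416-119095715 lie on the minus strand.
H3-3A: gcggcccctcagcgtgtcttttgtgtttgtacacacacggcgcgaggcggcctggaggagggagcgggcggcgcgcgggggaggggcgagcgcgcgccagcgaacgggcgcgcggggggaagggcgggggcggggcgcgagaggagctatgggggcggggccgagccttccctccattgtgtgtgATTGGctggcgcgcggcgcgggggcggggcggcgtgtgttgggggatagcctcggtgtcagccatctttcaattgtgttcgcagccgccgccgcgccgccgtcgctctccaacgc
H3-3B: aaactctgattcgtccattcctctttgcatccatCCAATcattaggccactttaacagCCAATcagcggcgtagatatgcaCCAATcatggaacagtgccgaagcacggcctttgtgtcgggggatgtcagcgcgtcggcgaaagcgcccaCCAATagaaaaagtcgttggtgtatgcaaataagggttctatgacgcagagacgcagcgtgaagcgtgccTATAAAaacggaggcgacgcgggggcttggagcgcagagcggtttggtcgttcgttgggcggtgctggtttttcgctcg
H2AZ1: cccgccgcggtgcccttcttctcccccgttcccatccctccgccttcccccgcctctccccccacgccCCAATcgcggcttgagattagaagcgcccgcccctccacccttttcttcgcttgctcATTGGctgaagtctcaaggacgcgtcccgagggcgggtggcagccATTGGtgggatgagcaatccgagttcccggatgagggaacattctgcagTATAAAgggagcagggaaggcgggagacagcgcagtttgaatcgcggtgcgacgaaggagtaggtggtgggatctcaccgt
H2AZ2: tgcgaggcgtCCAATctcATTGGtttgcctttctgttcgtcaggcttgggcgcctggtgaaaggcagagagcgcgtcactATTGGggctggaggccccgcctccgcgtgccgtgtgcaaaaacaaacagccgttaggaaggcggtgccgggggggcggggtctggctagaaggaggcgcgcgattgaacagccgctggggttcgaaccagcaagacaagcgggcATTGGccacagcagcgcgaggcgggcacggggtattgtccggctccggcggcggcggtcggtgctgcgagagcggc
H2AX: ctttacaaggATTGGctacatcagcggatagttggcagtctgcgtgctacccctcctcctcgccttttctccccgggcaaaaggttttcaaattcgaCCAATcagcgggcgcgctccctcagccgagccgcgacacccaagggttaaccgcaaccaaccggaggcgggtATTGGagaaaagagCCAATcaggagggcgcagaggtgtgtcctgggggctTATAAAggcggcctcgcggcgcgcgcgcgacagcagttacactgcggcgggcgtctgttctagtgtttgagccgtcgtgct

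The H3-3B window held 4 CCAAT matches, all on the gene's strand, and a TATAAA. The H2AX window held 2 on each strand and a TATAAA. The H2AZ1 window held 1 on its own strand, 2 on the opposite strand and a TATAAA. The H2AZ2 window held 1 on its own strand and 3 on the opposite strand, without TATAAA. Of 35116 RefSeq windows of this length, 34.6% held at least 1 CCAAT, 3.26% at least 3 and 0.991% at least 4, counted on both strands. The windows of these 4 genes each held 3 or 4. The printed H3-3A window held 1 CCAAT on the opposite strand and 6 matches to GGGCGG, the letters of a GC box, on its own. At least 1 GGGCGG on either strand was found in 45.0% of windows and at least 4 in 9.06%. H3-3A has other windows, of which the printed one held the most GGGCGG. The window starting at position 226061581 held 1 on the gene's strand. That at 226062020 held 2 on the opposite strand, and that at 226062197 held 2 on each. The H1-10 window held a TATAAA and no CCAAT, and TATAAA was found in 11.5% of windows. One of the MACROH2A1 windows held 2 CCAAT and the other none. These are matches of letters, and no binding was measured.

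Each group entered as the authors' 1 pooled value per transcript, in FPKM (fragments per kilobase of length, scaled to the depth of the library). No spread between samples can be given, so no test was made and the order of close values is not established. Columns were compared as log2(FPKM + 1), and at least 2-fold was taken as the size for counting, among the 22940 genes kept, those that reached 1 FPKM in 3 or more columns. Comparisons share columns: all release times are set against 0 minutes, and 0 and 300 minutes are both set against the asynchronous column. Steps between low values placed the other columns at 1.15 to 1.87 times the depth of the 0 minute column, which was the shallowest. In these bulk cultures fewer cells making a transcript and less RNA per cell cannot be told apart. The asynchronous column held the hepatoma markers ALB at 2295 FPKM and AFP at 3964 FPKM, which were 128 and 133 FPKM at 0 minutes, and of the blood markers PTPRC lay between 1.85 and 4.49 FPKM. The B cell marker CD79A was at 27.3 FPKM at 0 minutes, 40.0 at 80, 5.78 at 300 and 0.650 in the asynchronous column, and the stroma marker COL1A1 at 25.4, 28.7, 17.1 and 3.002 FPKM. In the same order, VIM, also listed for other cells, was at 2135, 3843, 2062 and 1422 FPKM. PECAM1, from the same list, went the other way, at 17.1, 17.7, 24.6 and 35.9 FPKM. The T cell marker CD3E lay between 9.64 and 14.9 FPKM, and the part of these markers in the results was not tested.

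At 0 minutes the genes fell into a group near or above the asynchronous level and a group well below it. H3-3A (98.4% of the asynchronous value), H2AZ1 (103%) and H3-3B (148%) belonged to the former. FPKM is scaled to the depth of each library, so these percentages are not amounts of new RNA per cell. The spike-in groups, which might bear on such amounts, were not analysed here. MACROH2A1 was 3.26-fold lower at 0 minutes, H2AX 2.89-fold lower and H1-10 2.83-fold lower, and H2AZ2 lay between at 1.80-fold lower. The 3 members at least 2-fold lower stand beside 19.0% of all kept genes, and 0 members were at least 2-fold higher beside 14.1%. The median of the members was -0.84 on the log2 scale against -0.14 for all genes, or -0.40 for the genes that pass a filter of 10 FPKM. Of all genes past 2-fold, 42.7% were higher at 0 minutes, 68.1% after scaling columns to equal medians, 50.1% after quantile normalization and 32.4% with a filter of 10 FPKM. The direction of H3-3A depended on the scaling, at -0.02 as deposited and 0.33 and 0.53 after the first and second of these scalings, and H1-10 was at -0.96 after quantile normalization.

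**Figure D1:**
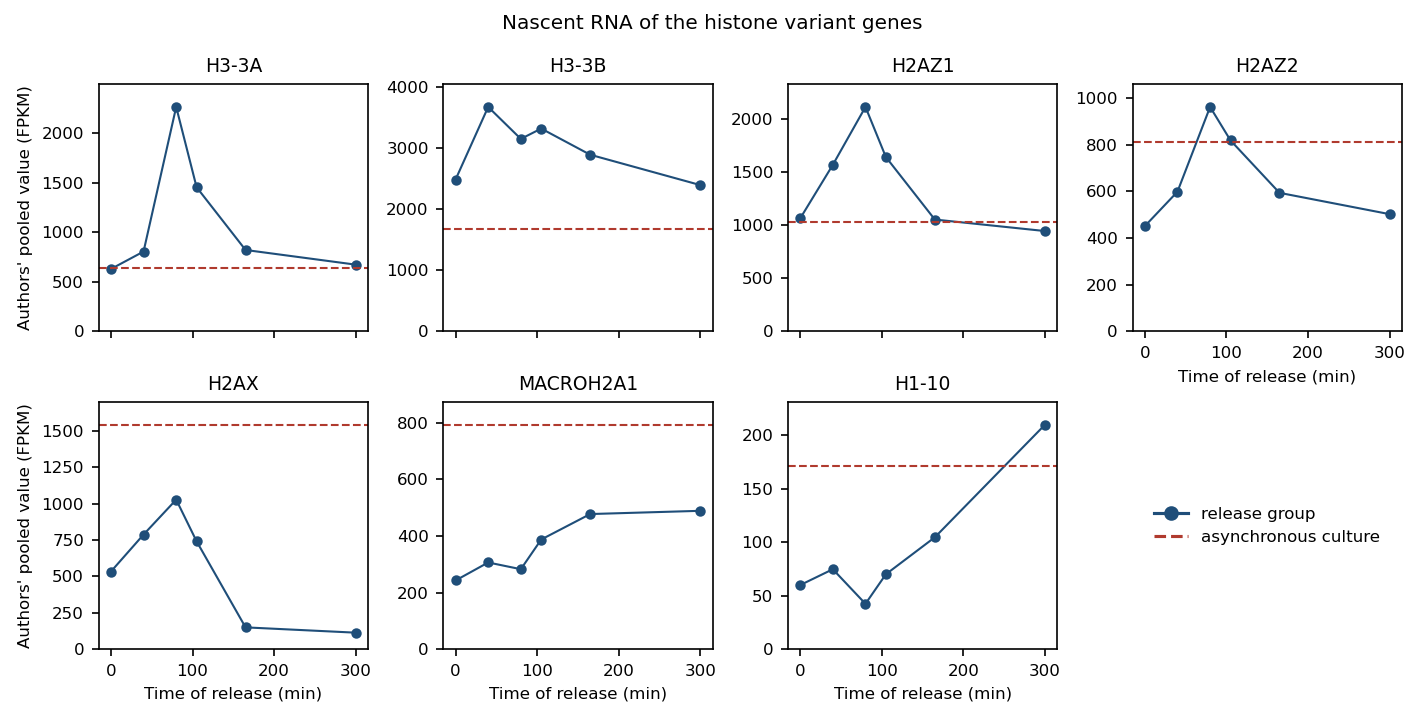
New RNA of the 7 histone variant genes as the authors' pooled FPKM (vertical axis, from 0, scaled for each gene) against time of release in minutes; points are the 6 release groups and the dashed line is the asynchronous culture, each 1 pooled value. H3-3A, H2AZ1, H2AZ2 and H2AX are highest at 80 minutes, H3-3B at 40 minutes, and MACROH2A1 and H1-10 at 300 minutes.

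Release values below are in the order 0, 40, 80, 105, 165 and 300 minutes. The gene pair for H3.3 encodes 1 protein from separate loci, and their courses differed in shape. H3-3A gave 630, 806, 2267, 1456, 822 and 674 FPKM over the release and 640 FPKM in the asynchronous culture. The values form a single peak at 80 minutes. The gene was 3.60-fold higher at 80 than at 0 minutes, 2.81-fold higher at 80 than at 40, and at 105% of the asynchronous value at 300 minutes. The first difference was at least 2-fold in all 7 settings of the processing. Filters on low values and the choice of transcript could not change it. H3-3B gave 2486, 3677, 3153, 3322, 2894 and 2396 FPKM over the release and 1679 FPKM in the asynchronous culture. All its release values were thus above the asynchronous one, with the highest only 1.53-fold over the lowest. Its log2 difference at 80 against 0 minutes was 0.34 as deposited, -0.06 with equal medians and -0.29 after quantile normalization, so that direction depended on the scaling.

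H3-3B had the higher FPKM of the pair in every column, but by an unequal factor. The ratio of H3-3B to H3-3A was 3.95 at 0 minutes and 4.56 at 40, dropped to 1.39 at 80, and was 2.28 at 105, 3.52 at 165, 3.56 at 300 and 2.63 in the asynchronous culture. A constant factor applied to a column leaves such a ratio as it is, but quantile normalization does not. Copies of these genes are also listed. H3P6, a pseudogene, held 1.00 times the H3-3A value in each column and so carries no separate information, and how the reads were divided between both names is unknown from the sources used here. H3-5, an intronless copy related to H3-3B, ran at 0.429 to 0.561 times H3-3B, and the authors' counting may have split or shared reads between them.

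The H2A.Z genes encode nearly identical proteins and were both highest at 80 minutes. H2AZ1 gave 1065, 1570, 2116, 1643, 1054 and 945 FPKM over the release and 1033 FPKM in the asynchronous culture. It doubled the asynchronous value at 80 minutes (205%) and was near it at 0, 165 and 300 minutes. H2AZ2 gave 450, 598, 961, 818, 593 and 502 FPKM over the release and 810 FPKM in the asynchronous culture. Its release value was above the asynchronous one at 80 minutes and level with it at 105 minutes (101%). At 300 minutes it was at 62.0% of the asynchronous value. At 80 against 0 minutes H2AZ2 was 2.13-fold higher and H2AZ1 1.99-fold higher, on either side of the 2-fold size used for counting. For H2AZ2 this log2 difference was 1.09 as deposited, 0.69 with equal medians and 0.19 after quantile normalization.

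The ratio of H2AZ1 to H2AZ2 was 2.36, 2.62, 2.202, 2.01, 1.78 and 1.88 over the release and 1.28 in the asynchronous culture. H2AZ1 was the higher of the pair throughout, and every release ratio was above that of the asynchronous culture. H2AZ2 has 5 accessions in the table. The 4 short ones, with exons of 596 to 752 bp, held identical values, and the long one, which spans 21287 bp against 13836 bp in GENCODE 29, held 1.25 to 1.74 times as much. At 80 against 0 minutes the long accession was 2.03-fold higher and the short ones 2.27-fold higher. At 105 minutes the long one was below its asynchronous value (982 against 1013 FPKM). The short ones were then above theirs (653 against 606 FPKM). The factor between them was lowest at 80 minutes (1.25), 1.40 at both earlier times, and 1.505, 1.73 and 1.74 at 105, 165 and 300 minutes, against 1.67 in the asynchronous culture. The value of H2AZ2 relative to H2AZ1 therefore rests on which accessions are averaged.

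H2AX had the widest course of the 7. It gave 533, 788, 1028, 742, 149 and 113 FPKM over the release and 1544 FPKM in the asynchronous culture. The highest release value was 66.6% of the asynchronous one and the lowest 7.31%. Between 105 and 165 minutes it was 4.94-fold lower at the later time, and 1 of 7 members was at least 2-fold lower in that step beside 5.27% of all genes. At 300 minutes it was 4.69-fold lower than at 0 minutes and 13.6-fold lower than in the asynchronous culture. Only 0.401% of kept genes had a difference as low or lower in the latter comparison, and 0.588% between 165 and 105 minutes. These 3 differences stayed past 2-fold in all 7 settings, though filters on low values and the choice of transcript could not change them. The release maximum moved from 80 to 40 minutes after quantile normalization.

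H2AX is a single exon of 1592 bp, and its low late values had the fewest reads. If a step between low values is 1 read, the 300 minute value rests on 73.4 reads with a 95% Poisson interval of 88.6 to 142 FPKM, and the 165 minute value on 102 reads with an interval of 122 to 181 FPKM. The intervals cover counting error only. Those at 105 minutes (674 to 814 FPKM) and in the asynchronous culture (1455 to 1637 FPKM) lie well above them. In RefSeq (GRCh38.p14) all 1592 bp of H2AX lie inside the annotated range of DPAGT1, an enzyme gene of N-glycosylation, while in GENCODE 29 the genes do not overlap. DPAGT1 gave 103, 105, 183, 143, 145 and 158 FPKM over the release and 160 FPKM in the asynchronous culture. H2AX was thus 5.18 to 9.62 times DPAGT1 up to 105 minutes and in the asynchronous culture, but 1.03 times it at 165 and 0.716 times it at 300 minutes; the part of DPAGT1 reads in the late H2AX values was not tested.

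**Figure D2:**
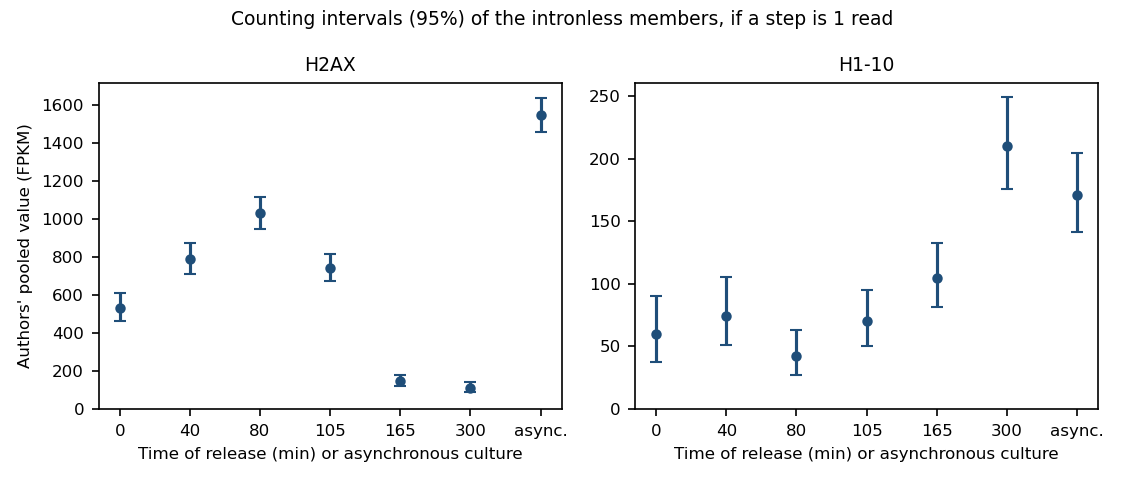
FPKM of the single-exon genes H2AX and H1-10 (vertical axes, from 0) in the 6 release groups and the asynchronous culture; points are the authors' pooled values and bars are 95% Poisson intervals if a step between low values is 1 read, for counting error alone. The intervals of H2AX at 165 and 300 minutes lie under all its others, and that of H1-10 at 300 minutes (175 to 249 FPKM) lies above all its earlier ones.

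H1-10 and MACROH2A1 were highest at the end of the course. H1-10 gave 59.9, 74.7, 42.4, 70.0, 105 and 210 FPKM over the release and 171 FPKM in the asynchronous culture. It had the lowest FPKM of the 7 in every column but that of 300 minutes. Its minimum was at 80 minutes, where 4 other members had their maximum, and at 300 minutes it was 3.47-fold above 0 minutes and at 123% of the asynchronous value. If a step is 1 read, the intervals at 0 minutes (37.7 to 90.4 FPKM) and 80 minutes (27.0 to 63.3 FPKM) overlap. The log2 difference at 80 against 40 minutes was -0.80, and the 40 minute interval (51.1 to 105 FPKM) also overlaps that at 80 minutes. Neither drop was tested, and the order of these values is not established. H1-10-AS1, an antisense lncRNA gene that starts across the H1-10 start with 16 bp of overlap, had its highest value at the same 80 minutes, 121 FPKM, from 56.7 at 0 and 60.2 in the asynchronous culture. The sources used here do not say whether the counting used strand.

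MACROH2A1 gave 243, 306, 283, 388, 478 and 489 FPKM over the release and 794 FPKM in the asynchronous culture. No release value reached the asynchronous one, and the last was 61.6% of it. At 300 against 0 minutes the gene was 2.01-fold higher, a log2 difference of 1.01 as deposited, 0.63 with equal medians and 0.34 after quantile normalization; its release maximum was at 165 minutes with equal medians. At 80 against 0 minutes it was 0.22 as deposited and turned to -0.18 and -0.63 under these scalings. The gene spans 65505 bp, and its accessions held values within a factor of 1.01 of each other, so the splice forms of macroH2A1 cannot be told apart here.

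**Figure D3:**
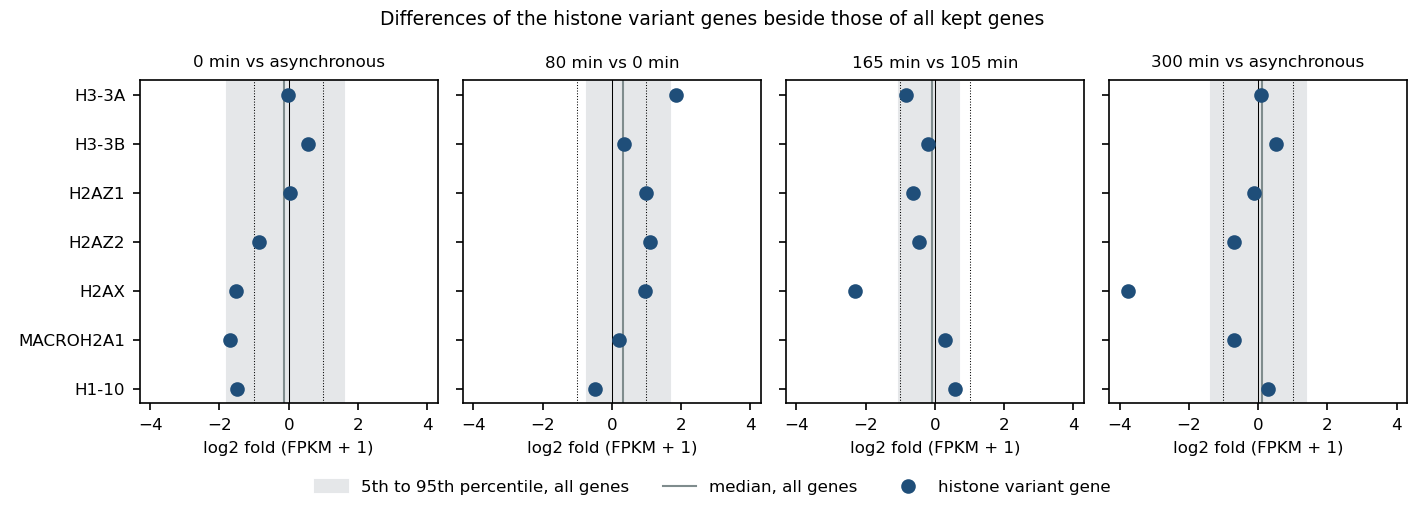
Differences on the log2(FPKM + 1) scale (horizontal axes) of the 7 histone variant genes in 4 comparisons; points are genes, the grey band is the 5th to 95th percentile of all 22940 kept genes, the grey line their median, and dotted lines mark 2-fold. H3-3A at 80 against 0 minutes and H2AX at 165 against 105 minutes and at 300 minutes against the asynchronous culture lie outside the band.

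At 40 against 0 minutes all 7 were higher, by 0.31 to 0.56 on the log2 scale, with 0 past 2-fold beside 3.24% of all genes higher and 2.05% lower, and a median of 0.41 against 0.10. After quantile normalization H3-3A was at -0.02 and the others at 0.07 to 0.20. At 80 against 0 minutes 2 of 7 were at least 2-fold higher (H3-3A and H2AZ2) beside 20.1% of all genes, and 0 lower beside 2.65%. The medians were 0.95 and 0.31, so the members were 0.63 above the shift of all genes. With a filter of 10 FPKM that shift was 0.50 and the members' median again 0.95. Equal medians brought the shift to -0.06 and the members' median to 0.54, and quantile normalization to -0.07 and 0.05. As deposited, the H2AX log2 difference was 0.95 and the H1-10 one -0.49. Of all genes past 2-fold in that comparison 88.3% were higher, against 60.2% with equal medians and 59.8% after quantile normalization. At 80 against 40 minutes only H3-3A was 2-fold higher, beside 13.5%, and none lower, beside 2.72%.

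At 105 against 0 minutes 1 of 7, H3-3A (2.31-fold), was at least 2-fold higher beside 20.3% of all genes, and 0 lower beside 3.99%. Its log2 difference of 1.21 was 0.79 with equal medians and 0.32 after quantile normalization. At 105 against 80 minutes 0 members were past 2-fold either way, beside 2.02% higher and 2.57% lower. H1-10 (0.71) and MACROH2A1 (0.45) were then higher while H3-3A (-0.64), H2AX (-0.47) and H2AZ1 (-0.36) were lower. At 165 against 105 minutes 0 members were 2-fold higher beside 2.27%, and H3-3A (-0.82) and H2AZ1 (-0.64) were lower again. The higher share of all genes past 2-fold at 80 against 40 minutes was 83.2% as deposited, 59.0% with equal medians and 56.6% after quantile normalization. At 105 against 0 minutes it was 83.6% as deposited, 42.1% with equal medians and 54.9% after quantile normalization, and at 165 against 105 minutes 30.1% as deposited, 38.0% with equal medians and 40.4% after quantile normalization.

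At 165 against 0 minutes H2AX was the member past 2-fold, 3.55-fold lower, beside 7.11% of all genes lower and 19.1% higher. The higher share of genes past 2-fold was 72.9% as deposited, 39.4% with equal medians and 49.1% after quantile normalization. At 300 against 0 minutes 2 of 7, H1-10 and MACROH2A1, were at least 2-fold higher beside 18.9% of all genes, and 1, H2AX, lower beside 8.82%. The higher share of all genes past 2-fold was 68.2% there, and 34.8% with equal medians and 49.6% after quantile normalization. At 300 against 165 minutes 0 were past 2-fold, beside 3.04% higher and 4.10% lower, with H1-10 just under it at a log2 difference of 1.00. At 300 minutes against the asynchronous culture 0 were 2-fold higher beside 9.84% and 1, H2AX, lower beside 8.57%. H3-3A (0.07), H2AZ1 (-0.13) and H1-10 (0.29) were close to the asynchronous level, and H3-3B was 0.51 above it.

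By the time of the highest release value, 4 of 7 members were highest at 80 minutes (H3-3A, H2AZ1, H2AZ2 and H2AX) beside 23.1% of all genes, 1 at 40 minutes (H3-3B) beside 13.8% and 2 at 300 minutes (H1-10 and MACROH2A1) beside 21.1%. None was highest at 0 minutes (16.4% of all genes), 105 minutes (12.5%) or 165 minutes (13.1%). By level, H3-3B had the highest FPKM of the 7 in every column. In the asynchronous culture it was followed by H2AX, H2AZ1, H2AZ2, MACROH2A1, H3-3A and H1-10. The order at 0 minutes was H3-3B, H2AZ1, H3-3A, H2AX, H2AZ2, MACROH2A1 and H1-10. The order at 80 minutes was H3-3B, H3-3A, H2AZ1, H2AX, H2AZ2, MACROH2A1 and H1-10. H3-3A was thus under H3-3B alone at 80 minutes, and under H2AZ1 as well at 0 minutes. H2AX (113 FPKM) was the lowest of the 7 at 300 minutes, under H1-10 (210 FPKM). Whether FPKM is per base of exons or of genomic span is not stated in the sources used here. The order between genes of unlike length is thus not established as an order of RNA amounts. With no replicate error, neighbours such as H2AZ2 (810 FPKM) and MACROH2A1 (794 FPKM) in the asynchronous culture cannot be put in order.

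Of the 7 other variant genes listed for comparison, 5 were present. MACROH2A2, the second macroH2A gene, stood at 21.1 FPKM at 0 minutes, 72.6 at 165 and 83.1 in the asynchronous culture, 3.81-fold lower at 0 minutes than in that culture. Like MACROH2A1 it stayed under the asynchronous value at every release time. CENPA, the centromere H3, was lower at each release time than at the one before, from 99.3 FPKM at 0 minutes to 32.6 at 300 minutes, and this order held with equal medians and after quantile normalization. Its asynchronous value was 110 FPKM. H2AJ, an H2A variant, was 3.85-fold higher at 80 than at 0 minutes (1060 and 274 FPKM), and its 0 minute value was 3.53-fold above the asynchronous one of 77.0 FPKM. After quantile normalization these log2 differences of 1.95 and 1.82 became 1.00 and 2.60.

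In the comparisons given below, the S phase histone genes had medians further from 0 than the variant genes. That was not so at 40 against 0 minutes (0.37 against 0.41) or at 105 against 80 minutes (-0.07 against -0.23). Of 67 listed S phase genes, 60 were kept. At 0 minutes 44 of 60 were lower than in the asynchronous culture by 2-fold or more and 4 were higher, beside 19.0% and 14.1% of all genes, and their median was -3.82 against -0.84 for the variants. At 80 against 0 minutes 51 passed 2-fold upward and 0 downward (38 and 0 after quantile normalization), beside 20.1% and 2.65% of all genes, their median being 2.25. At 300 minutes against the asynchronous culture 35 were lower and 5 higher, beside 8.57% and 9.84%, with a median of -1.90. Of these genes 30 had their highest release value at 80 minutes beside 23.1% of all genes, 17 at 105 minutes beside 12.5% and 12 at 165 minutes beside 13.1%. H3C2 was at 1.07 FPKM at 0 minutes, 425 at 80 and 1969 in the asynchronous culture, and H1-1 at 5.75 FPKM at 0 and 1239 at 80 minutes. H1-5 was at 0.0683 FPKM at 0 minutes and 2212 FPKM in the asynchronous culture, while H3C14 and H3C15, which share the same values, were higher at 0 minutes (74.5 against 4.49 FPKM). Among those with at least 10 FPKM in the higher column, the lowest differences at 80 against 0 minutes were those of H1-6 (1.37-fold) and H3C8 (1.40-fold). Near-identical copies make single S phase genes uncertain, and the difference between the lists was not tested.

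**Figure D4:**
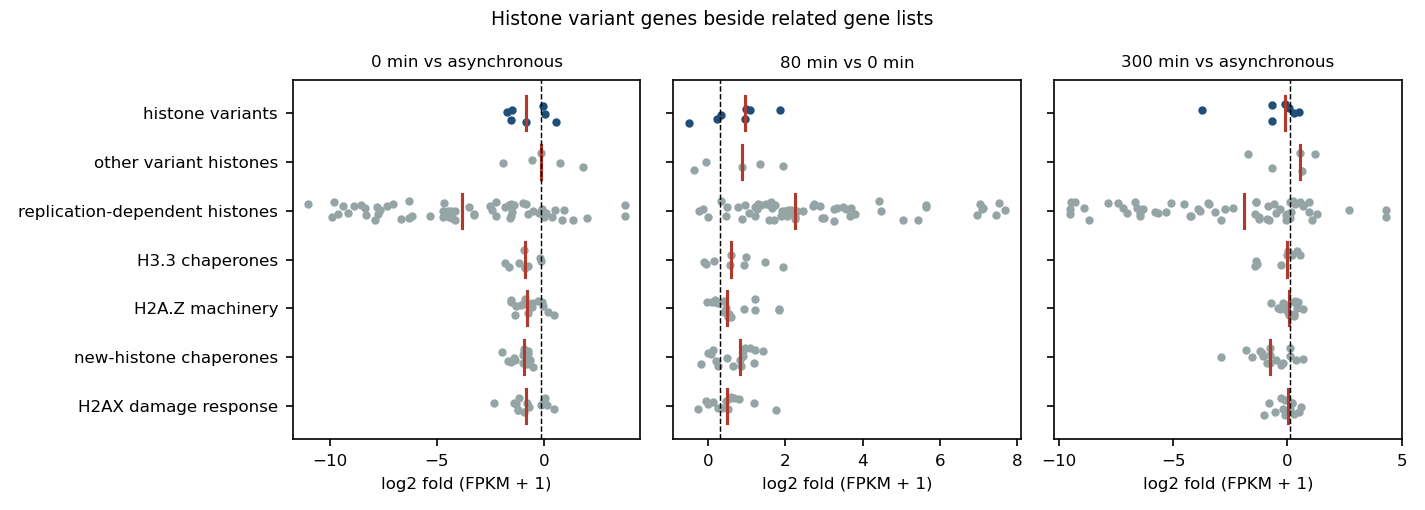
Differences on the log2(FPKM + 1) scale (horizontal axes, own range in each panel) for the histone variant genes and 6 related gene lists in 3 comparisons; each point is a gene, the bar is the median of its list and the dashed line the median of all kept genes. The S phase (replication-dependent) histone genes spread furthest, with medians of -3.82, 2.25 and -1.90.

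Genes whose products place the variants were followed from lists. Of 9 genes for H3.3 placement, 3 were lower by 2-fold or more and 0 higher in the 0 minute column than in the asynchronous one (median -0.90) beside 19.0% and 14.1% of all genes, and 2 were higher and 0 lower at 80 against 0 minutes (median 0.59) beside 20.1% and 2.65%. In the first comparison 2 of the 9 were lower both with equal medians (median -0.54) and after quantile normalization (median -0.26). ASF1A, which hands H3.3 to HIRA, was at 206 FPKM at 0 minutes, 789 at 80 and 725 in the asynchronous culture, a course whose 3.81-fold difference at 80 minutes was close in size to that of H3-3A. DAXX was 2.77-fold higher at 80 minutes (365 against 131 FPKM), while its partner ATRX (77.2 against 80.3 FPKM) and the HIRA complex member CABIN1 (76.1 against 82.0 FPKM) were level. DEK, another H3.3 chaperone, was 3.11-fold under its asynchronous value at 0 minutes, while the HIRA partners UBN1 (1.12-fold) and UBN2 (1.09-fold) differed little.

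Of 16 genes for H2A.Z exchange and removal, 5 were lower by 2-fold or more and 0 higher in the 0 minute column than in the asynchronous one (median -0.81) beside 19.0% and 14.1% of all genes, and 4 were higher and 0 lower at 80 against 0 minutes (median 0.49) beside 20.1% and 2.65%. In the first comparison 3 of the 16 were lower with equal medians (median -0.45), and 0 lower and 1 higher after quantile normalization (median -0.18). KAT5, the acetyltransferase of the EP400 complex, was 3.58-fold higher at 80 minutes (421 against 117 FPKM), and ZNHIT1, a subunit of the SRCAP complex, 3.55-fold higher (979 against 275 FPKM). TRRAP (74.5 against 75.5 FPKM) and INO80 (138 against 129 FPKM) were level. At 0 minutes ACTL6A (2.90-fold) and YEATS4 (2.88-fold) were below the asynchronous value, while ZNHIT1 (1.39-fold) and RUVBL2 (1.15-fold) were somewhat higher. Of the list 10 had their highest release value at 300 minutes, beside 21.1% of all genes.

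Of 17 genes for new and general histone handling, 5 were lower by 2-fold or more and 0 higher in the 0 minute column than in the asynchronous one (median -0.93) beside 19.0% and 14.1% of all genes, and 4 higher and 0 lower at 80 against 0 minutes (median 0.84) beside 20.1% and 2.65%. In the first comparison 5 of the 17 were lower with equal medians (median -0.57) and 2 after quantile normalization (median -0.32). RBBP7, a histone binding protein, was 2.68-fold higher at 80 minutes and NPAT, the activator of S phase histone genes, 2.32-fold higher, while CHAF1B (51.2 against 51.3 FPKM) and TONSL (57.6 against 65.6 FPKM) were not. At 0 minutes MCM2 was 3.92-fold and ASF1B 3.21-fold below the asynchronous value, against 1.55-fold for NAP1L1 and 1.40-fold for NPM1. At 300 minutes 6 of the 17 were at least 2-fold below the asynchronous culture (median -0.77) beside 8.57% of all genes, as was H2AX.

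Of 14 genes that act on or read phosphorylated H2AX, 6 were lower by 2-fold or more and 0 higher in the 0 minute column than in the asynchronous one (median -0.85) beside 19.0% and 14.1% of all genes, and 2 were higher and 0 lower at 80 against 0 minutes (median 0.49) beside 20.1% and 2.65%. In the first comparison 2 of the 14 were lower with equal medians (median -0.50), and 1 lower and 1 higher after quantile normalization (median -0.42). RNF168, a ubiquitin ligase at breaks, was 3.37-fold higher at 80 minutes and the phosphatase PPM1D 2.27-fold higher, while BRCA1 (1.20-fold lower) and PRKDC (1.05-fold lower) were not. At 0 minutes NBN was 5.05-fold and PRKDC 2.68-fold below the asynchronous value, and TP53BP1 (1.39-fold) and PPP4C (1.05-fold) were higher. At 300 minutes against that culture 1 of the 14 was at least 2-fold lower (median 0.02) beside 8.57% of all genes, where H2AX itself was at -3.76. At 80 against 0 minutes the medians of the lists for H3.3, H2A.Z, new histones and H2AX were 0.19, 0.09, 0.43 and 0.09 with equal medians. After quantile normalization they were -0.05, -0.26, -0.06 and -0.10, so the direction of each list depended on the scaling, and 0, 1, 0 and 0 of their genes were then at least 2-fold higher.

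The genes with the course most like each member were found over the 7 columns, by the root mean square distance of log2(FPKM + 1) profiles centred on their own mean, among 14853 genes that were at 10 FPKM or more in every column. For H2AZ1 they were MED29 (0.074) and PI4K2A (0.0998), and for H2AZ2 CENPL (0.060) and LACTB (0.071). After its copy H3P6, H3-3A was nearest to EXOC3-AS1 (0.075) and EIF3J-DT (0.097), both noncoding, and H3-3B to ULK1 (0.072), GOLGA6B (0.109) and MATCAP2 (0.112). MACROH2A1 was nearest to CASP4 (0.048), CGNL1 (0.075) and ATP11A (0.080), and H1-10 to LOC102723769 (0.138), SPINK5 (0.153) and LINC02994 (0.174). H2AX had no close neighbour, with FST at 0.317, TLNRD1 at 0.473 and TUBA4A at 0.483.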

How the data were processed

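The authors deposited 1 table of FPKM per RefSeq transcript, with 1 pooled column for each of 7 groups, per the file headers. Per the labels' protocols, EU was tagged with biotin for capture, and stranded libraries were made without ribosomal RNA. Bowtie2 2.2.9, TopHat, bcl2fastq, bedtools and hg19 appear in the submitters' processing notes. The sources used here do not give the counting, use of strand, background subtraction or pooling. Groups without EU or with spike-in RNA were not analysed here. Python 3.11.15 with pandas 2.3.3 and numpy 2.4.6 was used.

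Of 48205 transcripts, 97.8% matched a symbol in a RefSeq table of GRCh38.p14. A gene's value is the mean of its distinct value sets. Genes reaching 1 FPKM in 3 or more columns were kept (22940). Folds on the log2(FPKM + 1) scale understate differences between low values. Planned limma tests could not be run on pooled columns. Low values were used to place relative depth: the smallest repeated values of microRNA genes of GENCODE 29 length gave a step per column, but 16.9% to 25.2% of microRNA values lay below a step, so whole reads were not recovered. Scripts were tested on simulated data. Members and lists were chosen with earlier results of these data known. Genes named were all members, all other variants present, of each other list the 2 with the highest and the 2 with the lowest difference at 80 against 0 minutes and at 0 minutes against the asynchronous culture, with at least 10 FPKM in the higher column, and the 3 nearest courses of each member. Some genes that this rule names are not reported here. DPAGT1 and H1-10-AS1 were added after their values were seen, as overlapping genes. Alternatives were a pseudocount of 0.1, no filter, a filter of 10 FPKM, equal medians, quantile normalization and the highest transcript per gene.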

Additional observations from a re-analysis of the deposited data

How the results depend on the processing

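No paired analysis was possible because each group has 1 pooled column, and for the same reason no replicate could be left out. Over 6 alternatives, 216 of 234 counts and medians of the members stayed within the set limits and 18 moved. A median stayed if it kept its sign and its side of 2-fold. The median at 80 against 0 minutes thus stayed, though it was 0.95 as deposited and 0.05 after quantile normalization. All members pass the low-value filters, and a fold uses only a gene's own values. No filter and a filter of 10 FPKM could therefore move none of the 234. The highest transcript per gene moved none, and it could change only the values of the 2 members with several value sets, H2AZ2 and MACROH2A1. With a pseudocount of 0.1 the members at least 2-fold higher at 300 against 165 minutes were 1, not 0. With equal medians the members at least 2-fold higher were 1 at 80 against 0 minutes, 0 at 105 against 0 and 1 at 300 against 0, where the median became -0.28; 1 was lower at 80 against 40 minutes, and 1 had its highest release value at 165 and 1 at 300 minutes. After quantile normalization 1 was higher and 1 lower at 80 against 0 minutes, 0 were higher at 105 against 0, 1 was higher at 300 against 0, 1 was lower at 80 against 40, and 2 were highest at 40 minutes. The medians were then -0.21 at 105, -0.37 at 165 and -0.47 at 300 against 0 minutes, and -0.14 at 80 against 40 minutes, and each of these medians was above 0 as deposited. The cause was not tested. Of 462 differences of single members under the alternatives, 426 kept their sign and side of 2-fold, and 25 changed sign. Another 7 were no longer past 2-fold and 4 newly were. The filter settings could not change any of these differences, and the highest transcript per gene could change only those of H2AZ2 and MACROH2A1. Depth limits H1-10 most, at 22.4 steps at 0 minutes.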

Other observations

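The longer H2AZ2 accession allows the 7451 bp outside the short ones to be set apart, if the deposited values are per base of genomic span. On that assumption the density there was 802, 1072, 1469, 1595, 1344 and 1142 FPKM from 0 to 300 minutes of release and 1769 FPKM in the asynchronous culture. Over the short span it was 376, 498, 853, 653, 434, 366 and 606 FPKM in the same order. The outer part was thus highest at 105 minutes and the short span at 80 minutes. No replicate stands behind the order of these values, and the assumption was not tested.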
